A study of Mus musculus with 2 samples.

Results

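Mouse cortex transcripts were spliced across introns of 100000 nucleotides (nt) or more in 611 genes, among them many of neuronal adhesion, transmission and signalling. The long junctions described here are rows of the deposited splice-junction table whose A mark is 1, whose intron measures at least 100000 nt and whose reads, summed over both read columns, come to at least 10. There were 995 such rows among 1084159 junctions in the table, 182235 of which carried the mark and 149674 of which carried it with at least 10 reads. The files do not state what the mark means, but all 182235 marked rows and 0 of the unmarked rows equal an intron between adjacent exons of an Ensembl 65 transcript on mouse build mm9, so marked rows are called annotated below. The members were chosen by their length and their summed reads, so the totals, lengths and ranks of reads below are a description without a test.

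The series holds 2 libraries of 1 group and no contrast of conditions. Both were made from the cortical plate, labelled cortex, of adult C57BL/6J littermates at 8 weeks of age, with males and females pooled, from rRNA-depleted poly(A)+ RNA longer than 200 nt sequenced as stranded paired ends with spike-in RNA. They are labelled biological replicates 1 and 2, but nothing says which animals went into each, so p-values below compare these 2 libraries only. Each sets 1 library against 1, takes reads as independent, covers counting error and holds no estimate of the spread between libraries. The gene tables held 88327120.86 expected counts for replicate 1 and 88643335.03 for replicate 2. The junction table gives each row's reads in columns R1 and R2, with 37154453 and 36439800 reads over annotated junctions. No label ties R1 or R2 to a replicate, so they are kept as columns. Markers of the cell types of cortex were present in both libraries, for example Slc17a7 of excitatory neurons at 572 and 478.88 TPM, a level normalized for transcript length and library size, and Mbp of oligodendrocytes at 1814.52 and 2220.38 TPM, so the long junctions come from a mixture of cells. In such bulk tissue, fewer cells of a type and less RNA per cell cannot be told apart.

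Introns are transcribed with their gene and removed by the spliceosome, which joins the 5′ splice site at the end of the upstream exon, the donor, to the 3′ splice site before the downstream exon, the acceptor. Genes with very long introns are common among those that neurons express, such as those for synaptic adhesion proteins, neurotransmitter receptors and ion channels. Long genes of this kind often start from several alternative first exons, which are then joined to shared downstream exons across introns of different length.

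The exon sequences that meet at the joins were read from GENCODE M21 transcript models on GRCm38, matched to the mm9 junctions by transcript, strand, intron order and intron length. Each line below gives 30 nt of the upstream exon in lower case and 30 nt of the downstream exon in capitals, so that the change of case marks the join, and all lie in coding sequence. The first pair shows the longest intron and the coding junction with most reads. The longest, of 496721 nt at chr6:21167414-21664134 (mm9, plus strand), separates the first exon of Kcnd2 (ENSMUSG00000060882), a potassium channel subunit, from its second. The other, of 126824 nt at chr3:136333866-136460689 (plus strand), lies in Ppp3ca (ENSMUSG00000028161), the catalytic subunit of calcineurin.
Kcnd2: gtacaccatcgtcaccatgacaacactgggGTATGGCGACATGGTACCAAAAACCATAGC
Ppp3ca: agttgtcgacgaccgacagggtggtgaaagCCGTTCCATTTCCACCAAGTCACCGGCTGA

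The next 3 show alternative first exons of Dpp6 (ENSMUSG00000061576), an auxiliary subunit of the Kv4 potassium channels to which Kcnd2 belongs, joined to one acceptor at chr5:27709294 (plus strand). The introns span 120393, 332941 and 477466 nt, in that order, and the capitals are the same in all lines.
Dpp6 short: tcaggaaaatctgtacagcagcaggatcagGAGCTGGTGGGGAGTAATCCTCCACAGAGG
Dpp6 middle: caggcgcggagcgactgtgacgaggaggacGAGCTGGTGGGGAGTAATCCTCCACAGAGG
Dpp6 long: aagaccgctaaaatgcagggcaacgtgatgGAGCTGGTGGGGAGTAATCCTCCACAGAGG

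Nlgn1 (ENSMUSG00000063887), a postsynaptic adhesion protein that binds neurexins, shows the opposite arrangement, 1 donor with a choice of acceptors. Its introns of 220447 and 213004 nt (chr3:25811717-26032163 and chr3:25819160-26032163, minus strand) share 30 of 30 upstream bases and 5 of 30 downstream bases.
Nlgn1 major: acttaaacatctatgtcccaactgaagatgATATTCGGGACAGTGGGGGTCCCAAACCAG
Nlgn1 minor: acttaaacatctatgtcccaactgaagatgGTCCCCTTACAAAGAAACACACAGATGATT

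The 995 introns ran from 100004 to 496721 nt with a median of 145980 nt, and 67 were at least 300000 nt long. Their reads ran from 10 to 4947 with a median of 98 (quartiles 38 and 236.5), and 490 junctions had at least 100 reads. Together they held 221506 reads, 0.301% of all reads over annotated junctions (0.300% of R1 and 0.302% of R2). No member lacked reads in either column, and 952 had at least 5 in each. The 611 host genes were 4.21% of the 14511 genes with an annotated junction of at least 10 reads. Of them 416 had 1 long junction and 195 had 2 or more, with the most in Ptprd (10), Nrxn3 (8) and Dlg2, Lingo2 and Pcdha11 (7 each).

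At the thresholds, the shortest intron kept was one of 100004 nt in Slc24a2 (126 reads in R1 and 128 in R2), and the longest left out was one of 99885 nt in Hivep2 (32 and 25). A junction of Zbtb20 entered with 10 reads (5 and 5), and one of Enox2 was left out with 9 (5 and 4). There were 12 annotated long junctions with exactly 10 reads and 16 with 9, so the read threshold falls within a continuous range.

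Most reads lay on Syt1, the calcium sensor of fast transmitter release. Its intron of 108260 nt (chr10:108339372-108447631) was joined by 2421 and 2526 reads in R1 and R2, and its intron of 140042 nt by 2180 and 2158. The Ppp3ca junction printed above had 2250 and 2254 reads. The splicing regulator gene Celf4 followed with 1662 and 1602 reads over 141657 nt, and the glial and neuronal membrane gene Gpm6b with 1626 and 1543 over 133501 nt. In each of these the columns lay close together. Kcnd2, across the longest intron, had 357 and 301 reads, and the intron took 99.4% of the reads at its donor and 99.7% at its acceptor. Reads differed widely among introns of similar length. Ctnna2, an alpha-catenin of neurons, had 461 and 463 reads across 461237 nt, and Nrg3, an ErbB4 ligand, 148 and 135 across 459873 nt, whereas Il1rapl1 had 12 and 12 across 470851 nt and Grip1 14 and 16 across 475478 nt.

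Lists of genes by role held 207 of the host genes, and the other host genes lay in no list. Among these lists, that of synaptic and neuronal adhesion was the longest and held the most host genes. Of its 62 genes, 48 were host genes, with 148 long junctions and 36171 reads. The list of genes at chromosomal fragile sites, given below, had a larger share of host genes (15 of 17). Ntm, a neurotrimin of the IgLON family, had 1087 and 975 reads across 232301 nt. The IgLON relatives Negr1 (562 and 637 reads over 297084 nt) and Lsamp (453 and 515 over 355383 nt) were also read at high numbers. In Ptprd, a receptor phosphatase of synapses, the reads of the 10 long junctions ran from 58 to 519, and the lowest was a first intron that took 11.2% of the reads at its acceptor. Nlgn1 had 128 and 115 reads on the major join, 7 and 9 on the minor one and 105 and 123 across its intron of 472564 nt.

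Glutamate and GABA receptor and scaffold genes, a list that also holds Syt1, had 34 host genes of 46, with 82 long junctions and 28798 reads. Gabbr2, a GABA-B receptor subunit, had 606 and 688 reads across 115305 nt, and Gria1, an AMPA receptor subunit, had 627 and 448 across 170501 nt. The scaffold gene Dlg2 (PSD-93) spread its reads unevenly, with 758 and 696 across 159848 nt and 353 and 294 across 358705 nt but 16 and 8 across 226957 nt. All 5 long introns of Grm7, a metabotropic receptor, had between 183 and 448 reads, a much narrower range.

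Among 41 genes of ion channels and their auxiliary subunits, 26 were host genes with 34 long junctions and 6982 reads. Dpp10, another Kv4 partner, had 342 and 365 reads over 167850 nt. In Dpp6 the 3 joins printed above had 118 and 103, 42 and 56, and 22 and 8 reads from the shortest intron to the longest, or 63.1%, 28.0% and 8.57% of the 350 reads at their shared acceptor. Kcnj3, a G-protein-gated potassium channel subunit, also had a major and a minor join into one acceptor, with 235 and 243 reads over 147768 nt against 12 and 11 over 156908 nt.

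Signalling enzymes, a list that also holds Fgf12 and Phactr1, had 31 host genes of 47 (55 long junctions, 16690 reads). Among them were Prkcb with 817 and 954 reads and the kinase gene Mapk10 with 762 and 770. Prkce had 681 and 597 over 184614 nt and 580 and 504 over 120698 nt. RNA-binding and splicing genes, a list that also holds the methionine sulfoxide reductase gene Msra, had 11 of 21 (17 junctions, 9999 reads). In this group Rbfox1, a neuronal splicing factor, had 662 and 712 reads across 415062 nt, and Msi2 had 602 and 517 across 110000 nt. Rbfox3, whose protein is the neuronal marker NeuN, had 335 and 306 reads on one long junction and 6 and 4 on another. Transcription and chromatin genes had 28 of 46 but only 4911 reads over 49 junctions, for example 86 and 117 in Camta1 over 163180 nt. Axon guidance genes had 14 of 22 with 1223 reads over 20 junctions, led by Robo2 with 128 and 108 over 305613 nt. Genes of glia and vessels, a list that shares Gpm6b and others with neurons, had 12 of 29 with 35 junctions and 11909 reads. Genes known for large size at chromosomal fragile sites had 15 of 17 with 60 junctions and 10415 reads, among them Macrod2, whose 5 junctions spanned 198943 to 491062 nt and had 82 to 169 reads. For comparison, 611 of 14511 genes were host genes over the whole table, and the lists were chosen knowing which genes are long.

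The reads of each long junction were next set against all reads at its donor and at its acceptor. The intron took a median of 98.0% of the reads at its donor and 96.7% at its acceptor, and R1 and R2 differed in these shares by medians of 1.26 and 1.72 percentage points. Both shares were at least 95% in 453 junctions (45.5%). The donor share was under 50% in 77 junctions and the acceptor share in 167, so competing joins were more frequent at the acceptor.

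**Figure D1:**
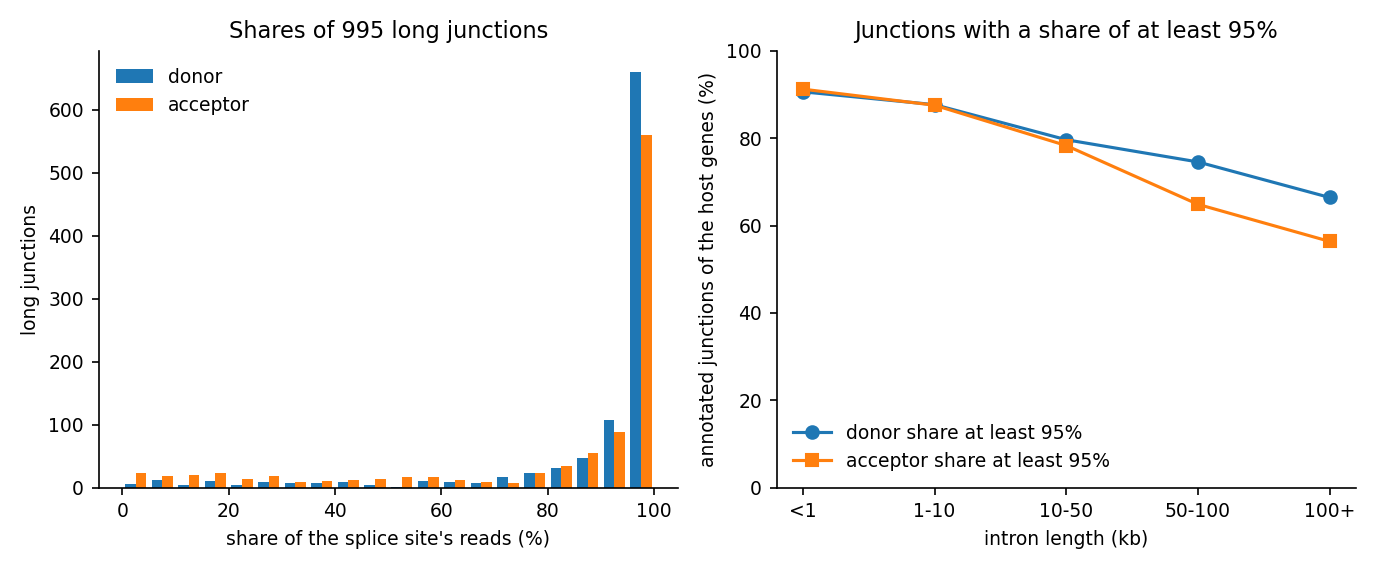
Left, numbers of long junctions by share of the reads at their donor (blue) and acceptor (orange), in percent. Right, percent of annotated junctions of the 611 host genes with a share of at least 95%, by intron length in kb, for donors and acceptors; both fall with length, the acceptor from 91.2% to 56.4%.

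Within the same 611 genes this pattern changed with length. Among introns under 1000 nt, 90.6% had a donor share of at least 95%, against 66.4% of those of 100000 nt or more. For the acceptor the values were 91.2% and 56.4%, and acceptor shares under 50% rose from 3.97% to 16.8% of introns. Introns of 50000 nt to under 100000 nt stood near the long ones, with 15.6%. Median reads fell over the same classes from 166 to 98, and the part of depth in these differences was not tested.

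The lowest acceptor shares lay on joins of few reads into exons that other junctions entered far more often. Gm38393 on chromosome 7 had 6 and 7 reads, 0.0418% of 31086 at its acceptor (Wilson 95% interval 0.0244% to 0.0715%). In Tspan5, a tetraspanin gene, an intron of 125490 nt had 9 and 4 reads, 1.11% of its acceptor (0.651% to 1.89%), while one of 125685 nt into the same acceptor had 539 and 523 and took 90.8%. Phactr3, Pde1a and Syt1 also held 1 major and 1 minor long junction into an acceptor, with minor shares of 1.94%, 1.40% and 1.93%. Abr, a GTPase regulator, had 9 and 13 reads over 113104 nt, 2.58% of 853 at the acceptor. Low donor shares showed the reverse, an upstream exon whose reads mostly joined elsewhere. Rbfox3 had 1.58% at the donor of its minor intron, and 2900011O08Rik had 0.927% (0.638% to 1.35%; 27 of 2913 reads). The 7 long junctions of Pcdha11, in the clustered protocadherin locus where many first exons share constant exons, ran from 2.44% to 9.08% of 738 reads at 1 acceptor, with donor shares from 95.7% to 100%. Genes of that locus share exons, so these reads are given to Pcdha11 by the exon table alone. These intervals cover counting error only.

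To compare each long intron with its own gene, its reads were divided by the median of the gene's other annotated junctions, as log2 with 0.5 added to both. For 947 junctions in genes with at least 3 others, the median log2 was -0.23 (quartiles -0.98 and 0.36), and 65.7% lay within 2-fold of their gene. Among the 429 with both shares at least 95% the median was 0.07 and 83.2% lay within 2-fold. Among the 184 with a share under 50% the median was -1.89. The annotated introns of this length with fewer than 10 reads, 237 with 1 to 9 and 506 with none, are not in these values, so the rule itself removed low ones.

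**Figure D2:**
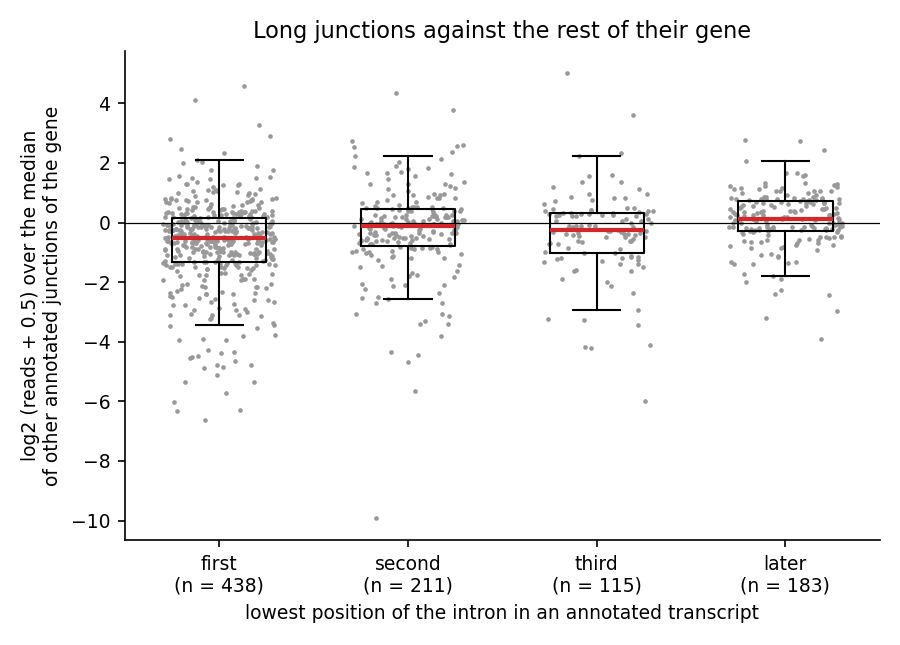
Each point is 1 long junction, placed by the log2 of its reads (plus 0.5) over the median of the gene's other annotated junctions, against the lowest position of the intron in any annotated transcript. Boxes give quartiles, red lines medians and whiskers reach at most 1.5 interquartile ranges; the medians are -0.53 for first, -0.12 for second, -0.27 for the third and 0.13 for later introns.

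First introns stood lowest. Of the 995, 466 (46.8%) were the first intron of at least 1 annotated transcript, with a median log2 of -0.53, against 0.13 for the 183 with a value whose lowest position was after the third. Acceptor shares under 50% fell from 22.3% of first introns to 9.73% of these later ones. Shorter first introns of the host genes showed medians of 0.00 under 10000 nt, -0.33 from 10000 nt to under 50000 nt and -0.56 from there to under 100000 nt, so the low values of first introns were not particular to 100000 nt. Both sides of a long intron were compared where more than 1 annotated junction of the gene was read on each, 397 cases. The median upstream reads were at least 2-fold below the downstream ones in 162, at least 2-fold above in 18 and within 2-fold in 217. These medians take all annotated junctions on a side, whichever transcript they belong to. In Gria1 the upstream median was 8 reads and the downstream one 772, and in Ncald, a neuronal calcium sensor, 40.5 and 4125. Umad1 went the other way, with 132.5 and 7.

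Some long junctions stood well above their gene. Aig1, a membrane hydrolase gene, had 480 and 443 reads across 111208 nt where the median of its other junctions was 28 (log2 5.02). Rasgef1b had 37 and 47 against a median of 3 (4.59), and Tshz2, a zinc-finger factor gene, had 205 and 181 across 249746 nt against 39.5 (3.27). Ntm, at 2.90, belongs here too, since its other junctions had a median of 275. The lowest were Gm38393 at -9.92, 2900011O08Rik at -6.63, Abr at -6.33 and Tspan5 at -6.30, with acceptor shares of 0.0418%, 0.858%, 2.58% and 1.11% in that order.

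No annotated junction of 500000 nt or more appeared in the table. Annotated introns of 400000 nt to under 500000 nt were joined by at least 10 reads in 57.6% of 33 cases, those of 300000 nt to under 400000 nt in 63.2% of 76 and those of all lengths in 61.5%, but 0 of the 39 introns of at least 500000 nt had any read. Unannotated junctions fell at the same place, from 1965 in the 10000 nt below 500000 to 280 in the 10000 nt above, and also from 11134 to 2165 at 250000 nt, where annotated ones showed no such drop. Junctions beyond 500000 nt were listed, 2918 of them up to 2355504 nt, and all of these were unannotated. The submitters' limit on intron length is not given in the sources used here, and its part was not tested.

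**Figure D3:**
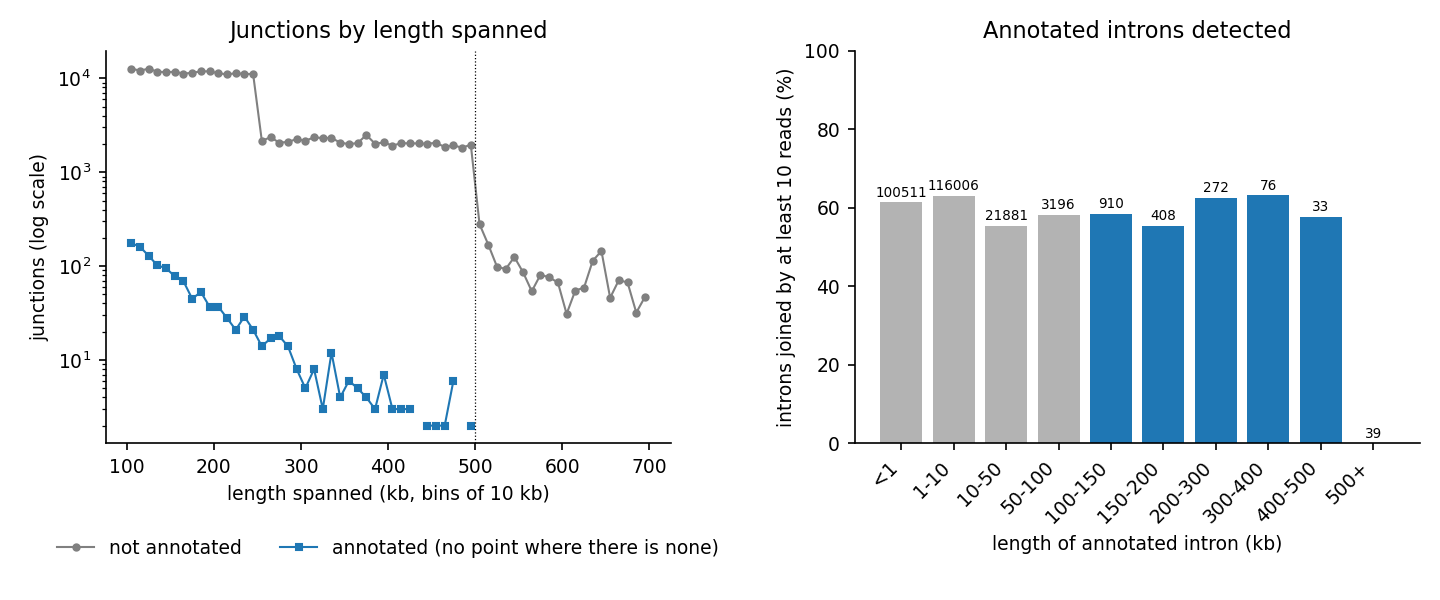
Left, junctions per bin of 10 kb of length on a log scale, unannotated (grey) and annotated (blue), with a dotted line at 500 kb; the unannotated fall from 1965 to 280 there and the last annotated one spans 496721 nt. Right, percent of annotated introns joined by at least 10 reads by length, with the number of introns above each bar; 57.6% of those of 400 to 500 kb and 0 of the 39 longer ones passed.

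Of these 39 introns, 37 lay in genes of at least 1 TPM, and the others in Lrmda, at 0.16 and 0.29 TPM in replicates 1 and 2. The level of a gene does not show that the transcript with the intron was made. Rasgrf2 stood at 43.85 and 39.84 TPM, but 0 reads lay at either end of its intron of 655429 nt. Ntm stood at 94.51 and 83.48 TPM in replicates 1 and 2 and had 2062 reads in the intron that follows its intron of 551204 nt, but 20 reads entering that intron's acceptor. Opcml, its IgLON relative, had 846 reads in the next intron and 19 at the acceptor of its intron of 612881 nt. Fam155a had 942 and 1, and Cntnap2, a neurexin-like gene, 160 and 1. Introns that share an acceptor, as in Kcnip4 and Pde4d, were counted separately, so these counts are not of independent sites. In 18 of the 39 the next intron had at least 100 reads. In 7 of those the reads at the acceptor were under 10% of that number, while in 6 they were at least 50%. Schip1, with 2565 reads at the acceptor and 3373 in the next intron, and Asic2, with 210 and 331, were of the latter kind, in which other junctions entered the acceptor. In Dpp6 (350 and 386) another annotated first exon lies 564636 nt from the shared acceptor and had 0 reads, so its 3 listed shares leave out any use of that exon.

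Reads also joined the ends of long introns to places inside them through junctions that Ensembl 65 does not annotate. The inner site itself was not required to be unannotated and can be the edge of an annotated exon. Of the 995, 226 (22.7%) had an unannotated junction from the donor to a site inside the intron with reads in both columns, and 325 (32.7%) had one from inside to the acceptor. These reached at least 10% of the intron's own reads in 77 and 146 members. In Anks1b, 886 such reads entered the acceptor of the intron of 214179 nt beside 1089 that crossed it. In Pex5l, a trafficking partner of HCN channels, 394 left the donor for the inside beside 393 that crossed it. Msra, a methionine sulfoxide reductase gene, had 578 into the acceptor and 193 across.

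In 37 introns of 34 genes, a junction from the donor and one into the acceptor, each with at least 10 reads and with reads in both columns, bounded an inner stretch of 3 to 500 nt. These 36 distinct stretches were 18 to 318 nt long (median 92 nt), and 20 of the 37 (54.1%) were a multiple of 3. The share joining a stretch was the mean reads of both bounding junctions, in percent of that mean plus the reads of that long junction. Other junctions that skip the stretch were not counted, so a share can be too high. Counted per intron, the share had a median of 10.7% and was at least 50% in 6. An Ncald stretch of 92 nt was scored for each long intron around it, at 74.1% beside 53 reads across and 40.2% beside 201. The bounding junctions could differ in reads, with 26 and 484 in Iqsec1 (29.0%) but 20 and 20 in Hs3st2 (3.22%). A stretch of 24 nt in Pcdh11x, a protocadherin gene, was joined in 78.2% (R1) and 84.8% (R2), one of 96 nt in Pcdh7, another protocadherin gene, in 21.1% and 17.2%, and one of 220 nt in Erc2, an active-zone scaffold gene, in 42.7% and 37.9%. Ppp3ca, with a stretch of 53 nt, stood lowest at 0.332% and 0.486%. In 10 cases, including Pcdh11x and Pcdh7 but not Erc2 or Ppp3ca, the later GENCODE M21 models hold an exon of that length between introns of both lengths.

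**Figure D4:**
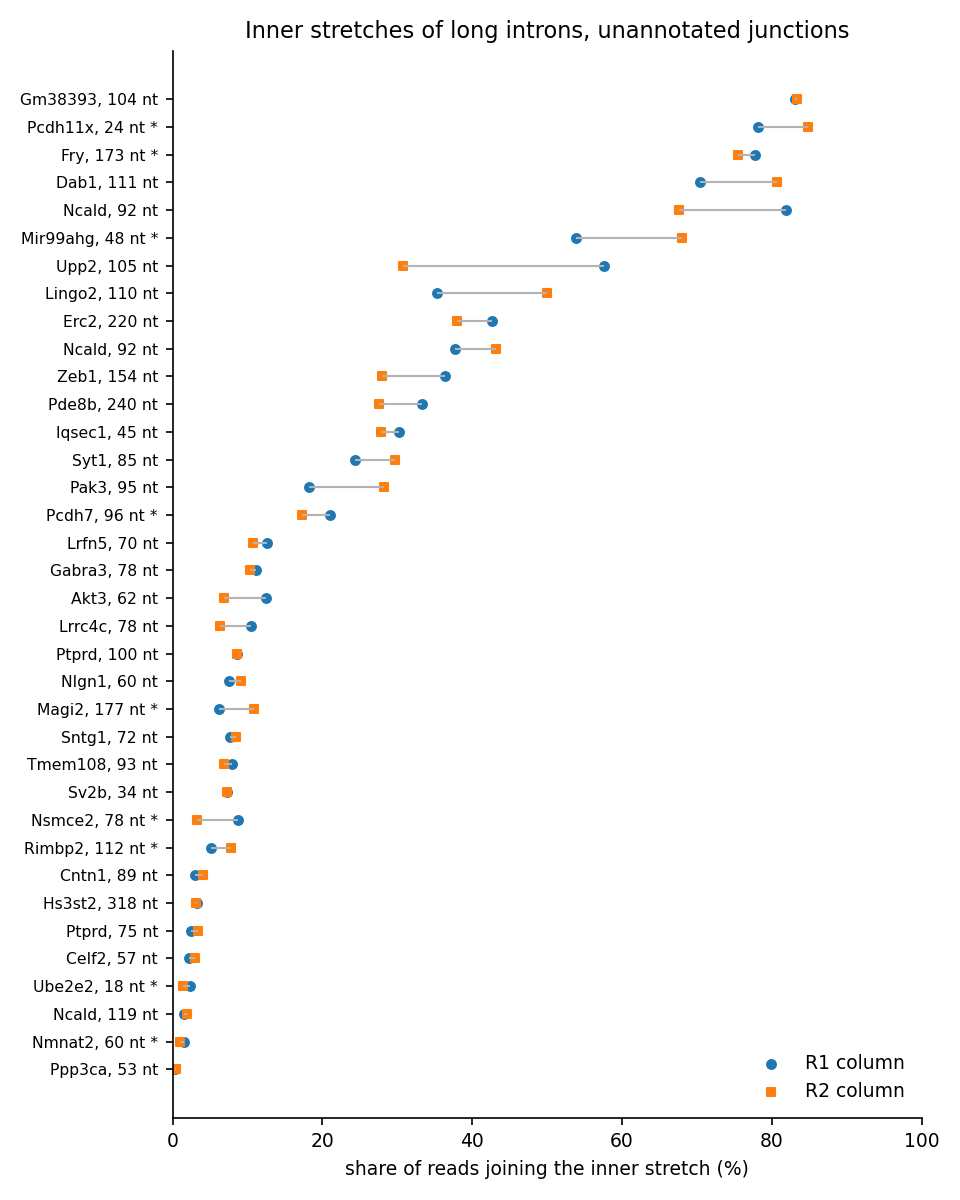
Share joining an inner stretch of a long intron, for 36 of the 37 stretches, named by gene and length, with 1 point for each read column. The share is the mean reads of both bounding junctions, in percent of that mean plus the reads of the long junction alone. An asterisk marks those matched in the later annotation. The shares run from 0.409% in Ppp3ca to 83.2% in Gm38393 over both columns.

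The deposited table of transcribed stretches, called contigs, covered much of the long introns on the strand of the gene. Over the 962 members within the table's extent, contigs covered a median of 91.9% of the intron (quartiles 77.7% and 96.8%) on the same strand and 0.848% on the other strand. Introns of 50000 nt to under 100000 nt in the same genes had 88.0%. Other annotated introns of 100000 nt to under 500000 nt in the host genes were covered to a similar degree, 85.1% where 1 to 9 reads joined them and 87.2% where none did. Any of these that overlap a member were not removed, so the same sequence can be counted in both. Over such introns of all genes the medians were 59.2% and 27.5%. How contigs were called is not stated, and a contig can hold few reads, so coverage is not a level of intron RNA.

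Around the joins, the sequences of long introns resembled those of shorter introns of their genes at the exon edges. The upstream exon ended in G in 82.5% of 917 matched long introns against 78.9% of 8390 shorter ones, and the downstream exon began with G in 45.8% against 45.6%. Long introns more often lay outside the coding part (23.0% against 6.28%). Of those inside it, 44.8% split a codon after its first base, against 35.0%. The upstream exon had a median of 175 nt against 129 nt. The introns of a gene are not independent and the sets differ in how many are first introns, so these shares are given without a test.

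The columns were then compared by an exact two-sided binomial test of each junction's R1 and R2 reads against the columns' totals, adjusted by Benjamini-Hochberg over all 149674 annotated junctions with at least 10 reads. An adjusted p under 0.05 was reached by 5.8% of all of them and by 38 of the 995 members (3.82%), 18 higher and 20 lower in R2. The members had fewer reads (median 98 against 170). This test compares 2 libraries and no condition. Of the 490 members with at least 100 reads, 466 (95.1%) lay within 1.5-fold between columns, against 96.3% of other annotated junctions of that depth.

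Among the junctions called, the largest ratio each way fell on a junction with few reads, in Ptchd4 and in Dlc1. Ptchd4 had 17 and 2 reads (exact binomial adjusted p = 0.0217) and Nr3c2, the mineralocorticoid receptor gene, 89 and 39 (0.00121). Pbx3, a homeodomain factor gene, had 7 and 32 (0.00281) and Dlc1 2 and 16 (0.0265). Among deep junctions, Gria1 was lower in R2 with 627 and 448 reads (exact binomial adjusted p = 3.5e-05).

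**Figure D5:**
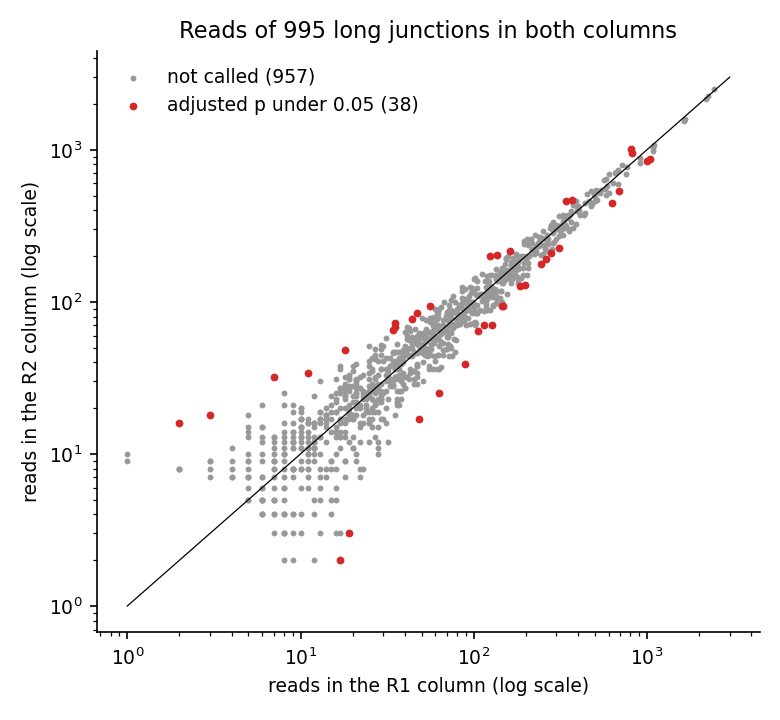
Reads of the 995 long junctions in R1 (horizontal) and R2 (vertical), both on log scales, with the line of equality; red points mark the 38 with an adjusted p under 0.05. Points keep close to the line above 100 reads and spread below it.

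The level of the host genes was taken from the gene tables on build mm10, matched by Ensembl identifier for 605 of the 611. Their mean TPM had a median of 11.8 (quartiles 4.46 and 25.6), and 581 of them reached 1 TPM. All 14465 genes at 1 TPM or more had a median of 12.6. Host genes were chosen by junction reads and not by TPM, so the filters differ. Among host genes Syt1 stood highest at 433.11 and 369.59 TPM, followed by Gpm6b at 333.56 and 304.54 and Ppp3ca at 331.25 and 293.60. Transcript tables showed how much of a gene came from models with a long intron. Over 314 host genes of at least 10 TPM the median was 95.1%, with 171 genes at 90% or more and 13 under 10%. Mapk10 stood at 22.6% and 22.7% in replicates 1 and 2, Ptprd at 33.7% and 33.9%, Ntrk2, the BDNF receptor gene, at 45.8% and 44.3%, and Abr at 0.877% and 0.640%.

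Replicate 2 was set against replicate 1 by exact binomial tests, two-sided, of the rounded counts of each gene, which called 28.3% of 19829 genes and 281 of the 605 host genes (46.4%), 140 higher and 141 lower in replicate 2. With plain library totals in place of TMM sizes the split was 106 higher and 201 lower. Host genes had more counts (median 6607 against 1909) and smaller differences (median absolute log2 0.08 against 0.11). Of the 281 host genes called, 10 passed 1.5-fold, against 826 of the 5611 called among all genes. Pde10a, a phosphodiesterase gene of striatal neurons, rose most, from 12.27 to 34.07 TPM (ratio of counts 3.34, log2 1.74). Pbx3 rose from 4.22 to 6.02 TPM (log2 0.77, exact binomial adjusted p = 9.17e-25), while Shisa6, an AMPA receptor auxiliary gene, fell from 5.36 to 2.36 (log2 -1.02). Ndst4, at 0.64 and 0.14 TPM, fell by 2.15 on the log2 scale (exact binomial adjusted p = 3.38e-14).

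A list of 12 striatal markers, Pde10a among them, was higher in replicate 2 in 12 of 12, summing to 168.84 TPM in replicate 1 and 499.88 in replicate 2, and 7 of 8 hippocampal markers were lower (46.19 and 31.25 TPM). No gene of either list stood at 0 in either library, and the part of these regions in the host genes' differences was not tested. The long junctions of Pde10a did not show its gene-level ratio. They had 52 and 50, 39 and 34, and 11 and 6 reads in R1 and R2, and transcripts with a long intron made up 19.7% of Pde10a in replicate 1 and 9.86% in replicate 2. Calls per list, against the 28.3% of all genes and 46.4% of host genes called, were 15 higher and 10 lower in replicate 2 of 48 adhesion host genes, 6 and 11 of 34 for receptors and scaffolds, 7 and 10 of 26 for channels and 13 and 6 of 31 for signalling enzymes. They were 1 and 4 of 11 for RNA-binding genes, 4 and 5 of 28 for transcription genes, 1 and 6 of 14 for axon guidance, 5 and 2 of 12 for glia and vessels and 3 and 1 of 15 for fragile-site genes. Plain totals gave 12 higher and 18 lower for adhesion and 3 higher and 4 lower for fragile-site genes, turning the majority, and 3 each way for glia and vessels. They gave 5 higher and 15 lower for receptors and scaffolds, 4 higher and 11 lower for channels and also for transcription genes, 11 higher and 9 lower for signalling enzymes, 1 higher and 6 lower for RNA-binding genes and 1 higher and 7 lower for axon guidance. With TMM sizes, list medians ran from -0.07 to 0.05 on the log2 scale, beside 0.00 over all genes tested.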

How the data were processed

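Poly(A)+ RNA was measured in 2 libraries of adult mouse cortex. The deposited junction table on mm9 gives read counts per junction in columns R1 and R2 and a score of irreproducibility (highest among members 0.058), and the deposited contig and exon tables are on the same build with Ensembl 65, per the file headers and the deposited notes beside the files. The authors' gene and transcript tables on mm10 (GENCODE M4) hold expected counts, rounded here before testing, and TPM. The aligner, its limit on intron length and the contig caller are not given in the sources used here.

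Introns were placed at the first and last intron base, 1-based. Junctions were tested with exact binomial tests and Benjamini-Hochberg adjustment, genes likewise after TMM scaling in edgeR 4.0.16 (R 4.3.3), with DESeq2 1.42.0 size factors, plain totals, other read minimums, TPM and each column alone as alternatives. Genes needed at least 10 counts. Python 3.11.15, pandas 2.3.3 and scipy 1.17.1 were used, and tests were tried on simulated data. Wilson 95% intervals cover counting error only.

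The contig table ends early on 7 chromosomes, so 33 members lay beyond it. Named junctions were the 15 with most reads, the 10 longest, those at each threshold, the 10 with the extreme shares or log2 values, up to 5 with the largest ratio each way and the leading genes of each list. Splice-site use inside introns, contigs, sequences and the 500000 nt step were described, and their examples chosen, after seeing the data. The members and lists were chosen with earlier results of these data known. Exon sequences came from GENCODE M21 on GRCm38, with 681 members having 30 coding nt on both sides. Results for some genes are not reported here.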

Additional observations from a re-analysis of the deposited data

Results flagged for a closer look

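The table also holds junctions of this length outside the annotation. Of the 230711 unannotated junctions of 100000 nt or more, 2237 had at least 10 reads, while 91.5% had 1 read. Both ends of 82 lay on annotated exons of 1 gene, 358 joined different genes, 493 had 1 annotated end and 1304 had none. There is no control sample in the series, and the read minimum chose these junctions. Among those with an annotated end, most reads (8851, with 4546 in R1 and 4305 in R2) lay on a junction from Tmem181a at chr17:6301454-6641416. A junction of 7978 reads from ENSMUSG00000079733 lay nearby on the other strand, and whether the region holds near-identical copies was not tested. Between annotated exons of 1 gene, the most were 384 reads (210 and 174) in Pex5l at chr3:32923723-33041770.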

How the results depend on the processing

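The number of long junctions moved with its own thresholds: 2853 in 1490 genes from 50000 nt, 237 in 167 genes from 200000 nt, 3232 without the annotation mark, and 884 to 885 in 556 to 563 genes with 1 column alone. The median donor share (98.0%) was 98.5% to 98.5% with 1 column alone, 98.5% from 50 reads and 100% over annotated junctions only; the acceptor share (96.7%) was 96.8% to 97.3%, 98.0% and 100%. The median log2 against the gene (-0.23) was -0.34 with the mean of the others, -0.30 with at least 10 others and -0.27 to -0.21 with 1 column alone. Host genes past 1.2-fold in TPM numbered 141, against 281 called by the test. With other scalings or minimums, 31 to 38 long junctions and 272 to 307 host genes were called. The 78 values of single junctions and genes under alternatives kept their direction and side of the threshold. The minimum of 20 reads gave no value for Ptchd4 and Dlc1, which had fewer reads. With plain totals the median log2 of host genes went from 0.01 to -0.02. Shares from junctions with few reads have wide intervals. No paired analysis was possible because the series holds 1 group.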

Other observations

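The 82 unannotated junctions between annotated exons of 1 gene included several in presynaptic genes. Rims1, a scaffold of the active zone, had 111 and 138 reads in R1 and R2 over 100454 nt, 102 and 116 over 130345 nt and 44 and 46 over 175080 nt. Its relative Rims2 had 155 and 149 over 138958 nt. Nell2, a secreted neuronal protein gene, had 75 and 73 over 133050 nt, and Ank2, an ankyrin gene, 60 and 86 over 234269 nt. Syt1 skipped annotated exons in 33 and 27 reads over 211151 nt, beside 2180 and 2158 over the annotated intron of 140042 nt into the same acceptor. All 82 had reads in both columns.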
